A study of Mus musculus with 48 samples.

Results

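Interferon-stimulated genes are the genes that cells switch on after they sense interferon or viral nucleic acid. A fixed list of 36 of them was followed here: each symbol was matched to 1 row of the deposited gene table, and all 36 matched among its 55487 genes. The list holds 6 nucleic acid sensors, 4 transcription factors, 4 genes of the IFIT family, 4 of the OAS family, 4 GTPases, 3 genes of the ISG15 system and 11 other effectors. Membership rests on gene symbols and on no threshold in these measurements.

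Type I interferons such as interferon beta bind a receptor of IFNAR1 and IFNAR2, and the kinases JAK1 and TYK2 then activate STAT proteins. The complex ISGF3, which holds STAT2 and IRF9, binds a DNA element called the ISRE in front of its target genes. Many of the targets are themselves sensors or transcription factors of the pathway, so the response can amplify itself, while proteins such as USP18, SOCS1 and SOCS3 restrain it. In kidney, tubular, endothelial and immune cells can all respond to interferon.

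RNA was sequenced from kidney slices of male mice kept in culture, from 2 inbred strains, C57BL/6J and DBA/2J. Each strain had 8 conditions with 3 libraries each, 48 in all: controls at 6 h and 24 h, the glycosylation inhibitor tunicamycin at both times, the calcineurin inhibitor cyclosporin A at both times, normoxia, which the labels call an ischemia model, and normoxia-hyperoxia, which they call a reperfusion model. The last 2 carry 24 h in their titles. Controls and drug slices are titled as nephrotoxicity, while the oxygen conditions are titled as kidney ischemia or reperfusion. No control carries the latter titles, and the titles do not say whether these sets were run together. In comparisons with the controls, oxygen and experiment therefore cannot be told apart. Drug doses, the oxygen level of the controls, the time of the oxygen switch and the age of the mice are not stated in the labels, and the labels name no engineered allele. The labels number the libraries of a group as biological replicates but do not say how many mice they came from, or whether slices of the same number in different conditions came from 1 mouse. Total counts ran from 5619309 to 25137581 per library, the lowest in replicate 2 of DBA/2J normoxia-hyperoxia and the next lowest at 12384733. Levels are given as CPM, a gene's count divided by the library's total count and scaled to a common total, and mitochondrial transcripts took 3.11% to 25.6% of that total. Kidney markers were present throughout, since 4 proximal tubule genes summed to 106 CPM or more and 2 podocyte genes to 84.1 CPM or more in every library.

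The sequence in front of the start of transcription was read for members with a RefSeq entry on GRCm38.p6, the C57BL/6J reference; no DBA/2J sequence was read. Of the 36 genes, 27 had a window of 250 bases before the start. The motif searched was the core of an ISRE, GAAA and GAAA with 2 bases of any kind (NN) between them, or on the other strand TTTC and TTTC with NN between them; overlapping matches were allowed. It was found in 13 of these 27 windows (48.15%), against 936 of 27025 genes with a window (3.463%), and 8 of the 13 held at least 2 matches. A match is a stretch of letters and not a measured binding site. The 7 windows below, 1 from each role, show how the motif sits in genes whose levels are described further on; they run 5′ to 3′ in the direction of transcription, with every match in capitals. In Isg15 3 matches overlap in 1 run of capitals. In Oas1a 2 overlap, the nearer of them starting 14 bases before the start of transcription, and in Ddx60 the nearer of 2 starts 19 bases before it. Their places are chr8:61927837-61928086 (plus strand) for Ddx60, chr10:128270248-128270497 (plus strand) for Stat2, chr19:34583279-34583528 (plus strand) for Ifit3, chr5:120907526-120907775 (minus strand) for Oas1a, chr3:142620413-142620662 (plus strand) for Gbp2, chr4:156200819-156201068 (minus strand) for Isg15 and chr12:26456453-26456702 (minus strand) for Rsad2.
Ddx60: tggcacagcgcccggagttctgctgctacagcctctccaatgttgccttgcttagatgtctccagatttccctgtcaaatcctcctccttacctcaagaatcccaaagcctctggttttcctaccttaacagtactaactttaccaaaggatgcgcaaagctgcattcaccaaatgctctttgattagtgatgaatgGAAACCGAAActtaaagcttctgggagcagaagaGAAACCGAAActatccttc
Stat2: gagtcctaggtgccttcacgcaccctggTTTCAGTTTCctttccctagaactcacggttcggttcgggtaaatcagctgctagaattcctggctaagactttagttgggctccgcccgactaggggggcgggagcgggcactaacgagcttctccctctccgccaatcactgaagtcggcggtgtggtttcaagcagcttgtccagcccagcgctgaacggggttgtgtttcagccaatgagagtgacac
Ifit3: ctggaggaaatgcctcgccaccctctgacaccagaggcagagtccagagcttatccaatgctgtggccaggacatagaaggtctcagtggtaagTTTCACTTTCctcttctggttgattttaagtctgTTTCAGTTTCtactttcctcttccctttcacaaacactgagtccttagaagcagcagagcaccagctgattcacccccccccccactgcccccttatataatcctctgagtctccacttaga
Oas1a: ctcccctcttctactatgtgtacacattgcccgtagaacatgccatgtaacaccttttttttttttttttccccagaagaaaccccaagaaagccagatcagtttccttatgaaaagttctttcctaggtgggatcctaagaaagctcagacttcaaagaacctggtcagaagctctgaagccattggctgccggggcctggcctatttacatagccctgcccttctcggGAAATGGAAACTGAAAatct
Gbp2: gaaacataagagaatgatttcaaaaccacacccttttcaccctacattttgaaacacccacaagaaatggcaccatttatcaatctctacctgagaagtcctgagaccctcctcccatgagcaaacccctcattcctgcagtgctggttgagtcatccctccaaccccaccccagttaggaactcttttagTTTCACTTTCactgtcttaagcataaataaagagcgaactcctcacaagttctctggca
Isg15: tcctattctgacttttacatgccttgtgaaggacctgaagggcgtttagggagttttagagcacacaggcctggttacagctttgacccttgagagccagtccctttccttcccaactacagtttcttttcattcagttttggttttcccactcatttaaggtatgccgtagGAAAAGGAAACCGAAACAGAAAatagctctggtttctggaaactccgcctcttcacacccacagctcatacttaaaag
Rsad2: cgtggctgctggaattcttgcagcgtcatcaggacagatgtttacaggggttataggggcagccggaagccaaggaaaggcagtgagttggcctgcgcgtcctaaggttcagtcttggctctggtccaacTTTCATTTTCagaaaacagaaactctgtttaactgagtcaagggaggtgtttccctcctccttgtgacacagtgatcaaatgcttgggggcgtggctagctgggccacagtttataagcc

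The 36 genes moved with the oxygen condition and with the strain, and no member passed edgeR's test under either drug, while 2 passed under tunicamycin at 24 h by DESeq2. The summed level of all 36 was lowest under normoxia, at 500.0 to 653 CPM in C57BL/6J and 286 to 405 CPM in DBA/2J. It was 2312 to 2795 CPM under normoxia-hyperoxia in C57BL/6J and 1563 to 2399 CPM in DBA/2J. In the 24 h controls it was 1928 to 2818 CPM in C57BL/6J and 737 to 900.3 CPM in DBA/2J, so the strains did not overlap. The 6 h controls of DBA/2J held 573 to 635 CPM, while those of C57BL/6J held 944, 2682 and 1145 CPM in replicates 1 to 3. That high replicate 2 had the highest level of its group for 35 of the 36 genes, and values of the 6 h comparisons are also given without it where it moves them most. In C57BL/6J the library numbered 2 was also the highest of its group for 35 of the 36 genes under tunicamycin at 6 h, 34 in the 24 h controls, 30 under tunicamycin at 24 h, 27 under normoxia and 25 under cyclosporin A at 24 h, but for 15 under cyclosporin A at 6 h and 12 under normoxia-hyperoxia. Leaving out the control alone keeps these others in. Among the 8 conditions, normoxia had the lowest mean for 34 of the 36 genes in C57BL/6J and for 30 in DBA/2J. Normoxia-hyperoxia had the highest mean for 34 genes in DBA/2J but for 12 in C57BL/6J, where the 24 h control was highest for 16 and cyclosporin A at 24 h for 8.

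**Figure D1:**
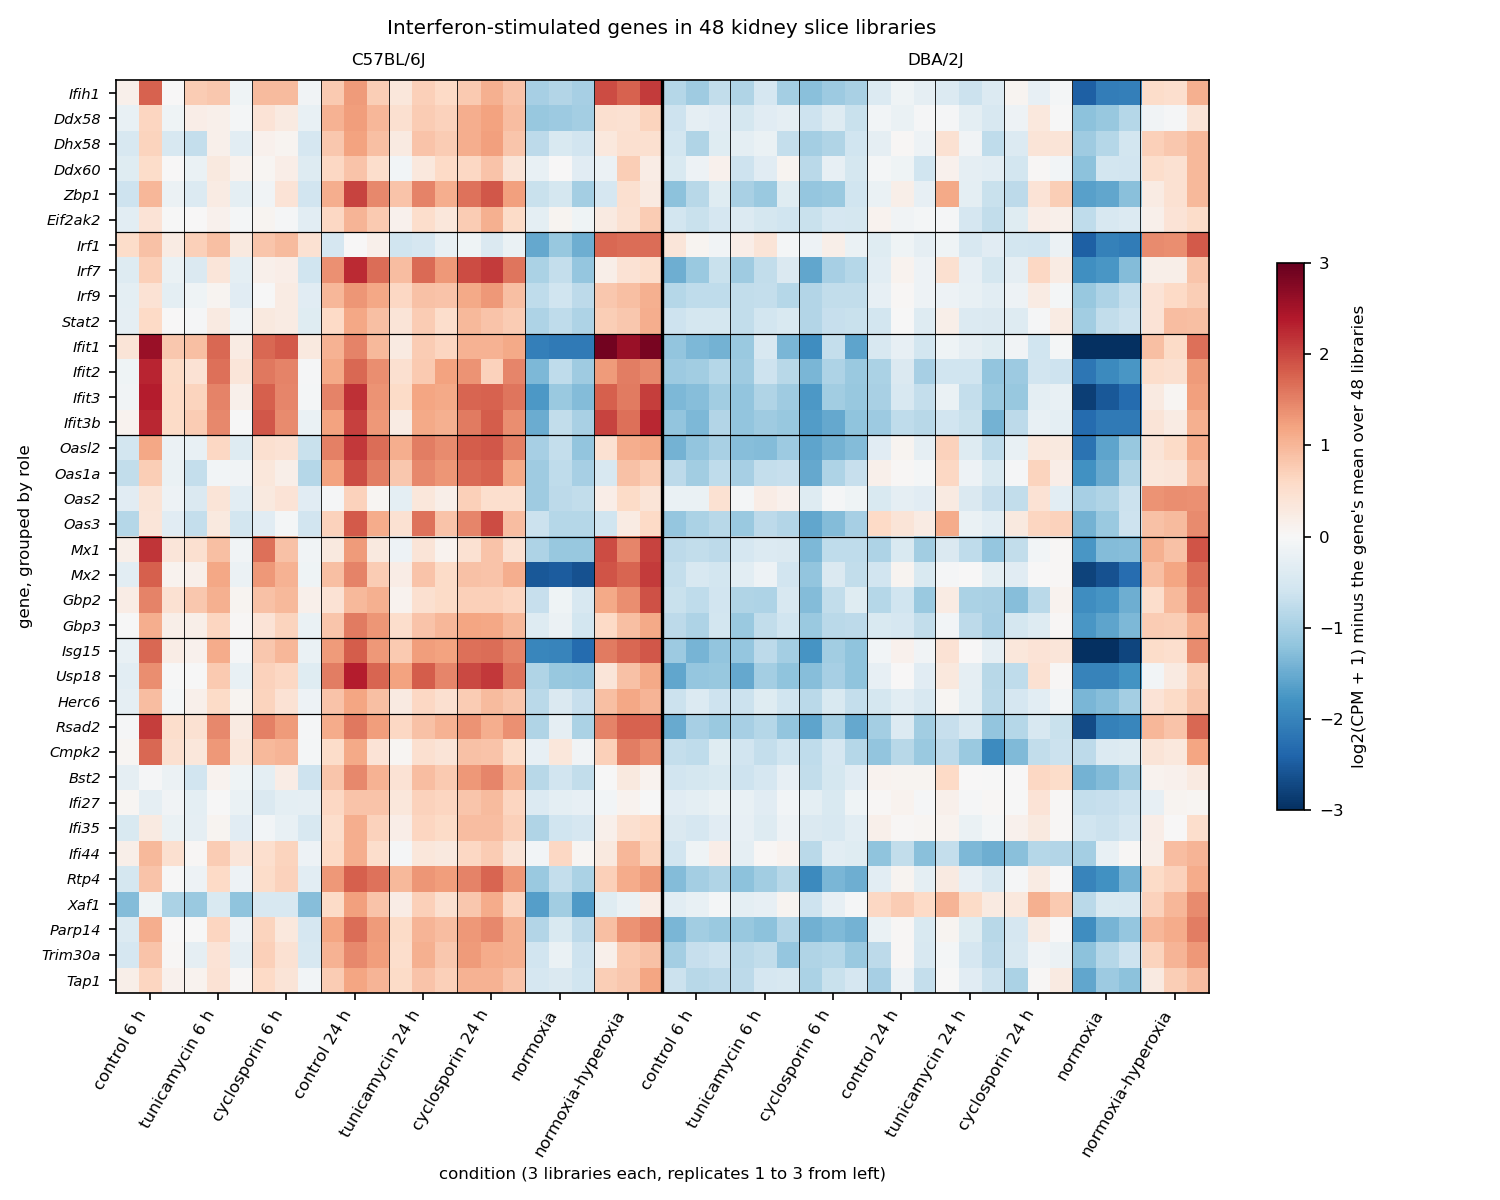
Each row is 1 of the 36 genes and each column 1 of 48 libraries; colour gives log2(CPM + 1) minus the gene's mean over all libraries, with black lines between conditions, roles and strains. Columns of normoxia are the bluest in both strains, the DBA/2J side is bluer than the C57BL/6J side in the controls, and replicate 2 of the C57BL/6J 6 h controls is redder than the other two.

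**Figure D2:**
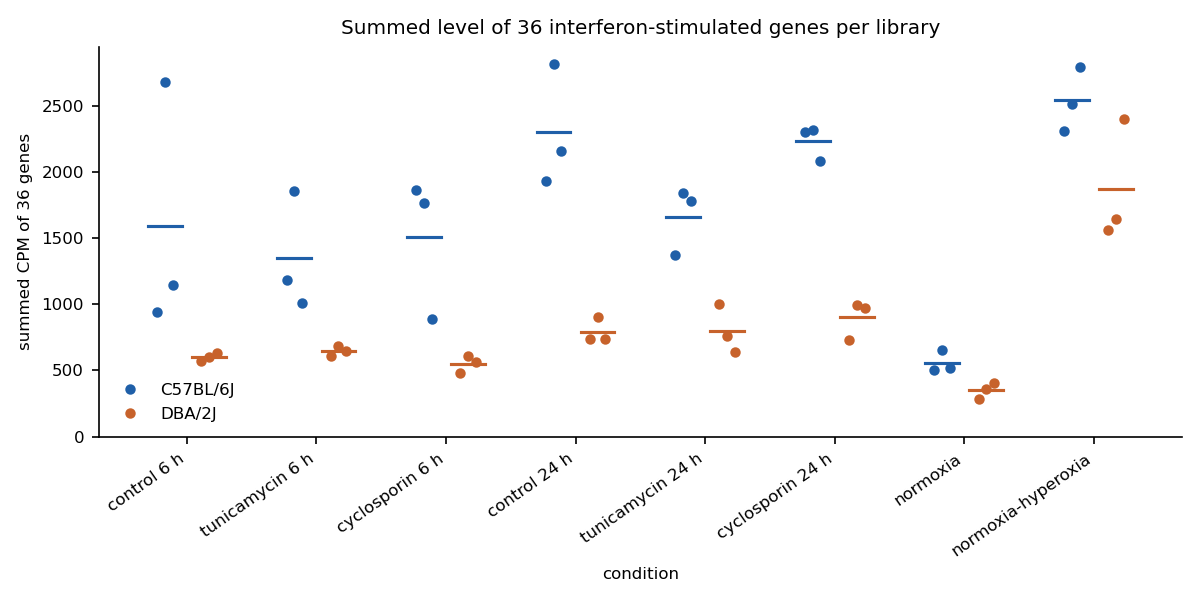
Points are the summed CPM of the 36 genes in each library, by condition (x axis) and strain (colour), and short lines are means of 3 libraries. The C57BL/6J controls at 24 h (1928 to 2818) lie above the DBA/2J controls (737 to 900.3), and both strains are lowest under normoxia.

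Per kilobase of exon, the scale on which different genes can be set side by side, the C57BL/6J 24 h controls held most transcript of Isg15 (86.0 CPM per kilobase), then Ifit3 (84.2), Rsad2 (73.4), Bst2 (70.8) and Ifi27 (44.7). In the DBA/2J 24 h controls the order was Bst2 (33.9), Isg15 (29.5), Ifi27 (26.4), Irf1 (17) and Rsad2 (16.7). Ddx60 was the lowest on this scale in both strains, at 0.758 and 0.349 CPM per kilobase.

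Under normoxia the genes fell as a group against the 24 h controls. Of the 36, 34 fell and none rose at an adjusted p under 0.05, while 39.7% of all tested genes fell. The median log2 change of the members was -1.41 and that of all genes 0.05. In 32 of the 36 every normoxia library lay below every control library of its own strain, as it did in 39.9% of all genes. The genes that did not pass were Cmpk2, a mitochondrial nucleotide kinase that lies next to Rsad2, at 0.17, and Ifi44, at 0.38. These tests, and those below that print an adjusted p, are edgeR quasi-likelihood tests with Benjamini-Hochberg adjustment over all genes tested; comparisons of conditions are averaged over both strains.

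Isg15 encodes a ubiquitin-like protein that is attached to other proteins during an interferon response. Its level was 55.9, 82.3 and 56.8 CPM in replicates 1 to 3 of the C57BL/6J 24 h controls and 5.03, 4.95 and 3.78 CPM under normoxia. In DBA/2J it was 21.3, 24.6 and 20.9 CPM in the controls and 1.8, 1.72 and 2.52 CPM under normoxia. Every normoxia library was lower than every control library of either strain, and the log2 change by edgeR was -3.37 (SE 0.13, adjusted p = 3.341e-12). Usp18, which removes ISG15 and also restrains the interferon receptor, fell with a log2 change of -2.44, and Herc6, the main mouse ligase for ISG15, of -1.02. Of the 7 windows printed above, the one of Isg15 holds the most matches.

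Ifit1 belongs to a family of proteins that bind foreign RNA and lie side by side on chromosome 19. It held 73.1, 99.5 and 69 CPM in the C57BL/6J 24 h controls and 7.7, 7.18 and 7.29 CPM under normoxia. In DBA/2J it held 24.8, 29.1 and 23.6 CPM in the controls and 2.09, 2.29 and 2.61 CPM under normoxia. The groups did not overlap within or across strains, and the log2 change was -3.19 (SE 0.11, adjusted p = 2.724e-13) by edgeR. The other family members fell too, Ifit2 by a log2 change of -1.61, Ifit3 of -2.30 and its near copy Ifit3b of -1.92; reads shared by Ifit3 and Ifit3b could be counted for either.

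All 4 GTPases fell. Mx2, an antiviral GTPase of the dynamin type that the annotation lists as a polymorphic pseudogene, held 25.4, 38.8 and 23 CPM in the C57BL/6J 24 h controls and 1.44, 1.54 and 1.33 CPM under normoxia. In DBA/2J the levels were 8.59, 14 and 9.34 CPM and 1.06, 1.3 and 1.93 CPM. Normoxia levels of the strains overlapped each other and lay below all controls, with a log2 change of -3.34 (SE 0.20, adjusted p = 8.342e-10) by edgeR. Mx1 changed by -1.45, and the guanylate-binding proteins Gbp2 and Gbp3, which attack the vacuoles of intracellular pathogens, by -0.85 and -1.14. Mx1 and Mx2, and Gbp2 and Gbp3, are paralogs, and reads they share make each value less certain than its error shows.

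The transcription factors fell with the effectors. Irf7, which turns on the interferon alpha genes, had a log2 change of -1.93, Irf1 of -1.38, and the ISGF3 subunits Irf9 and Stat2 of -1.11 and -0.89. All 6 sensors fell, from -1.95 for Zbp1, a sensor of Z-form nucleic acid, and -1.76 for Ifih1, which encodes MDA5, to -0.48 for Eif2ak2, the kinase PKR. Ddx58, which encodes RIG-I, changed by -1.33. The 4 OAS genes, whose enzymes activate RNase L, also fell, from -2.30 for Oas3 and -2.17 for Oas1a to -0.79 for Oas2. Of the 11 other effectors 9 fell, among them Rtp4 (-1.94), Xaf1 (-1.65) and Rsad2 (-1.45), the radical enzyme viperin.

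Set against the 6 h controls the normoxia libraries were lower as well. Of the 36 genes 30 fell and none rose, against 32.9% of all genes that fell, and the median log2 change was -0.89 (0.02 for all genes). Mx2 had a log2 change of -3.31 (SE 0.43, adjusted p = 5.085e-05), Ifit1 of -3.19 (SE 0.43, adjusted p = 0.0001199) and Isg15 of -2.65 (SE 0.37, adjusted p = 9.794e-05) by edgeR. The genes that did not pass here were Cmpk2, Dhx58, Eif2ak2, Ifi44, Oas3 and Trim30a. Without replicate 2 of the C57BL/6J 6 h controls 28 fell, the median was -0.61, and the changes were -2.77 for Mx2, -2.64 for Ifit1 and -2.19 for Isg15. The 2 comparisons of normoxia share their treated libraries. All 4 endothelial markers (-0.63 to -1.58) and both podocyte markers (-1.31 and -1.47) fell against the 6 h controls as well, while 3 of 4 proximal tubule and 2 of 3 general leukocyte markers rose, and their part in the fall of the 36 genes was not tested.

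Markers of cell types moved as well. Summed CPM of Ptprc, Coro1a and Laptm5, which mark leukocytes in general, was 33 to 55.1 in the C57BL/6J 24 h controls and 76.2 to 86.7 under normoxia; in DBA/2J it was 39.99 to 55.8 and 53.3 to 62.4. All 3 of these markers rose under normoxia. The 4 proximal tubule markers Lrp2, Slc34a1, Slc5a2 and Cubn rose too, from levels of 306 to 495 to 3666 to 5916 CPM in C57BL/6J; in DBA/2J they went from 696 to 1560.3 to 9573 to 10869 CPM. Of the 4 endothelial markers 2 fell and 1 rose, and their sum went from 983 to 1280.4 to 498 to 699 CPM in C57BL/6J, and in DBA/2J from 551 to 923 to 252 to 422 CPM. Both podocyte markers fell. Of the 3 plasmacytoid dendritic cell markers Tcf4 fell (-0.93), so that their sum went from 111 to 126 to 47.4 to 65.6 CPM in C57BL/6J, and in DBA/2J from 57 to 101 to 28.1 to 40.2 CPM, while Siglech and Ccr9 rose. Of the 7 macrophage and dendritic cell markers 5 rose and 1 fell. Mitochondrial transcripts took 23.9% ± 1.55 of counts under normoxia and 6.83% ± 0.97 in the 24 h controls in C57BL/6J, and 12.3% ± 0.53 and 3.52% ± 0.12 in DBA/2J (SD, n = 3). With mitochondrial genes left out of the library totals 34 of the 36 genes fell. The part of the cell type markers in the fall of the 36 genes was not tested. In bulk RNA, fewer cells of a type and less RNA per cell cannot be told apart.

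Under normoxia-hyperoxia all 36 genes were higher than under normoxia, where 37% of all genes were higher. The median log2 difference was 1.96 (0.02 for all genes), and for 34 of the 36 the libraries of each strain did not overlap, as for 28.4% of all genes. Ifit1 rose from the normoxia levels given above to 267, 216 and 258 CPM in C57BL/6J and 65.9, 52 and 112 CPM in DBA/2J, a log2 change of 4.97 (SE 0.19, adjusted p = 3.608e-10) by edgeR. Mx2 reached 51.2, 46.5 and 59.3 CPM and 25.6, 31.3 and 43.4 CPM, a log2 change of 4.77 (SE 0.16, adjusted p = 3.795e-12) by edgeR. Isg15 reached 68.2, 77.2 and 85.4 CPM and 33.5, 32.6 and 61.6 CPM, a log2 change of 4.15 (SE 0.19, adjusted p = 9.753e-10) by edgeR. All of these libraries lay above all normoxia libraries of both strains.

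Cell type markers and the mitochondrial share moved between these conditions too. The 4 proximal tubule markers fell by log2 changes of -4.36 to -4.93, to 106 to 158 CPM in C57BL/6J and 478 to 699 CPM in DBA/2J. The 4 endothelial and 2 podocyte markers all rose, and of the 3 general leukocyte markers Ptprc (0.38) and Laptm5 (0.66) rose. Of the 7 macrophage and dendritic cell markers 5 rose and 1 fell. Under normoxia-hyperoxia mitochondrial transcripts took 14.1% ± 2.31 (SD, n = 3) of counts in C57BL/6J and 13.7% ± 3.30 (SD, n = 3) in DBA/2J, against the normoxia values above. Their part in the rise of the 36 genes was not tested.

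Against the 24 h controls, which both oxygen conditions share, the rise under normoxia-hyperoxia was partial: 24 of the 36 genes rose and 2 fell, where 34.1% of all genes rose and 34.1% fell. The median log2 change was 0.71 (0.00 for all genes). These values average the strains. Within C57BL/6J the median was 0.01, with 18 of the 36 genes above 0. Within DBA/2J it was 1.25, with all 36 above 0. In 6 of the 36 the libraries of each strain lay above all of its controls, against 17.8% of all genes. By role, 4 of 4 IFIT genes, 4 of 4 GTPases, 3 of 4 transcription factors, 2 of 3 genes of the ISG15 system, 3 of 6 sensors, 7 of 11 other effectors and 1 of 4 OAS genes rose. Without replicate 2 of DBA/2J normoxia-hyperoxia, the library of lowest depth, 24 rose and 2 fell. In the same comparison all 3 general leukocyte markers (0.87 to 1.55), 5 of 7 macrophage and dendritic cell markers, both podocyte markers and all tested T and NK cell, B cell and neutrophil markers (3 of each) rose, and all 4 proximal tubule markers fell. Sums of loop of Henle and distal markers rose from 2547 to 5029 CPM to 11403 to 19650 CPM in C57BL/6J. In DBA/2J they rose from 1951 to 4432 CPM to 11562 to 13769 CPM. Collecting duct sums rose without overlap in both strains, and endothelial sums overlapped. The mean mitochondrial share was 14.1% in C57BL/6J and 13.7% in DBA/2J, against 6.83% and 3.52% in the controls. The part of all these in the rise was not tested.

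Irf1, an early transcription factor that interferon gamma and inflammatory signals also induce, rose in both strains. It held 57, 80.7 and 89.1 CPM in the C57BL/6J 24 h controls and 267, 261 and 259 CPM under normoxia-hyperoxia. In DBA/2J it held 62.5, 73.1 and 67.1 CPM and 217, 213 and 292 CPM. The conditions did not overlap, the log2 change was 1.99 (SE 0.11, adjusted p = 2.649e-09) by edgeR, and the strains' own changes were 1.99 in C57BL/6J and 1.98 in DBA/2J.

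Mx1, which in many laboratory mouse strains carries a deletion that inactivates its protein, held 5.43, 11.7 and 5.41 CPM in the C57BL/6J 24 h controls and 19.5, 13.5 and 20.3 CPM under normoxia-hyperoxia. In DBA/2J the levels were 1.77, 2.84 and 1.56 and 10.1, 8.72 and 18.4 CPM. Within each strain the conditions did not overlap, and the log2 change was 2.08 (SE 0.27, adjusted p = 2.388e-05) by edgeR. Ifit1 changed by 1.77 (SE 0.18, adjusted p = 3.927e-06). Gbp2, whose printed window holds a single match, changed by 1.503 and Rsad2 by 1.38. The 2 genes that fell were Bst2, the membrane protein tetherin that holds budding virus at the cell surface, at -0.30 (SE 0.09, adjusted p = 0.01103), and Ifi27, a protein of mitochondria and the nuclear envelope, at -0.26 (SE 0.07, adjusted p = 0.00387) by edgeR. The strains differed in both genes. The log2 change of Bst2 was -0.83 in C57BL/6J but 0.23 in DBA/2J, and it had an interaction of 1.06 that passed; that of Ifi27 was -0.59 and 0.07, with an interaction of 0.66 that passed. Irf7, at -0.27, and Usp18, at -0.10, were among the 10 genes that did not pass.

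Against the 6 h controls the normoxia-hyperoxia libraries held more of 30 of the 36 genes and less of none, where 22.4% of all genes rose. The median log2 change was 1.05 (0.02 for all genes). Ifit1 rose by a log2 change of 1.82 (SE 0.37, adjusted p = 0.002642), Oas3 by 1.75 (SE 0.34, adjusted p = 0.0008932) and Parp14, an ADP-ribosyltransferase, by 1.65 (SE 0.24, adjusted p = 0.0002292) by edgeR. Cmpk2, Ddx60, Ifi27, Ifi44, Ifit2 and Zbp1 did not pass. All 3 general leukocyte markers and 6 of 7 macrophage and dendritic cell markers rose here too, and all 4 proximal tubule markers fell; their part was not tested. Without replicate 2 of the C57BL/6J 6 h controls the count was 35 of 36, the median was 1.35, and the changes were 2.34 for Ifit1, 2.06 for Oas3 and 1.95 for Parp14.

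**Figure D3:**
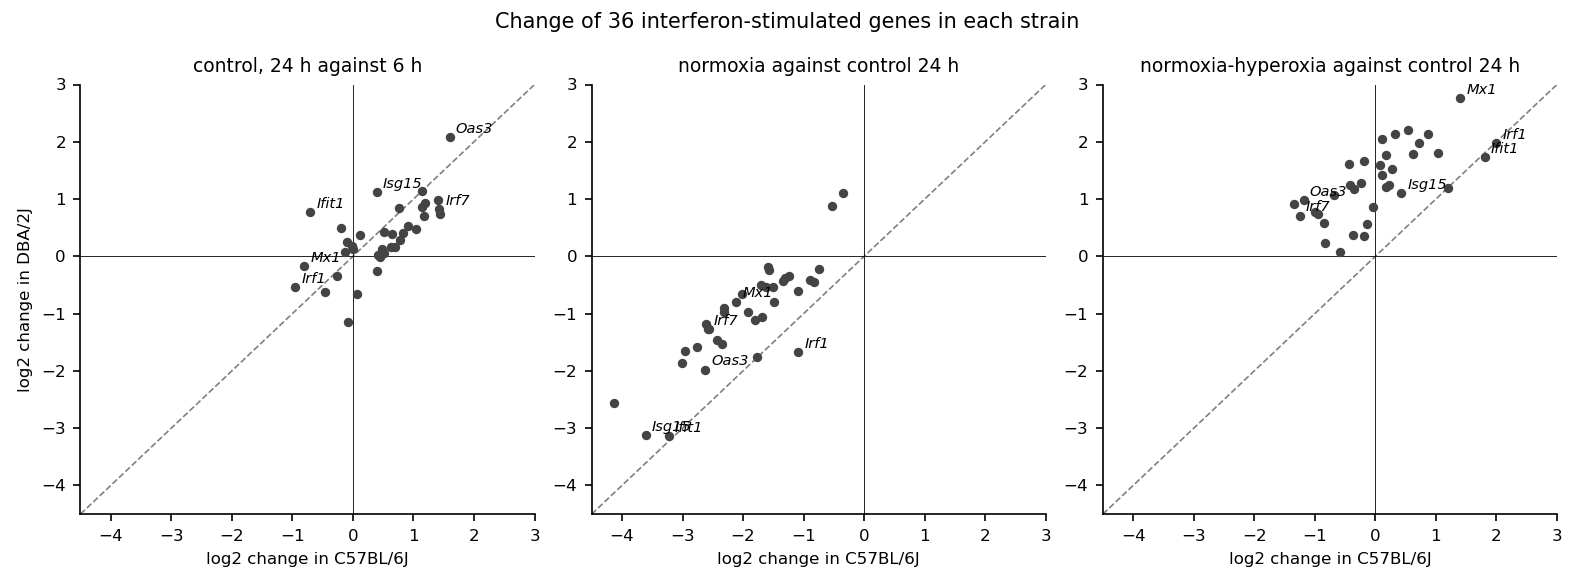
Each point is 1 of the 36 genes, placed by its log2 change in C57BL/6J (x axis) and in DBA/2J (y axis) for 3 comparisons; the dashed line marks equal changes. Under normoxia most points lie below 0 in both strains and above the dashed line, and under normoxia-hyperoxia all 36 lie above 0 in DBA/2J while 18 do so in C57BL/6J.

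Both oxygen responses differed between the strains. Under normoxia the median log2 change was -1.78 in C57BL/6J and -0.94 in DBA/2J. The difference between the strains' changes, tested as an interaction (DBA/2J minus C57BL/6J), was positive and passed in 23 of the 36 genes and negative in none, where 10.1% of all genes passed as positive. The median interaction was 0.97 (0.025 for all genes). Ddx58 held 106, 123 and 102 CPM in the C57BL/6J 24 h controls and 22.5, 23.4 and 24.6 under normoxia, but 47.7, 44.2 and 49.5 and 21.2, 22.6 and 27.8 CPM in DBA/2J. The strains were apart in the controls and overlapped under normoxia, and the interaction was 1.36 (SE 0.14, adjusted p = 4.126e-05) by edgeR. Interactions were 1.20 (SE 0.16, adjusted p = 0.0002716) for Irf9, 1.40 (SE 0.23, adjusted p = 0.001596) for Stat2 and 0.96 (SE 0.20, adjusted p = 0.004356) for Herc6, also by edgeR. For Ifit1 it was 0.09, for Ifih1 0.01 and for Irf1 -0.58, and none of these passed. The count of 23 was 6 when all 48 libraries were fitted together, and 8 to 24 when each library was left out in turn. It dropped by more than 1.5 times without replicate 1 (11) or 3 (8) of the DBA/2J 24 h controls, replicate 1 (14) or 3 (12) of C57BL/6J normoxia, or replicate 2 (15) or 3 (11) of DBA/2J normoxia. Those that passed were positive in each of these fits. Without replicate 3 of the C57BL/6J 24 h controls 15 were positive and 1 negative. Of 38 cell type markers tested in this interaction 12 were positive and 26 negative, with a median of -0.405. Of these, 4 passed as negative and none as positive. Their part in the strain difference of the 36 genes was not tested.

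The log2 change under normoxia was also the lower one in C57BL/6J for the 9 members given here. The interaction passed for Oasl2, Rtp4, Parp14, Trim30a, Ifi35, Cmpk2 and Ifi44, and did not for Zbp1 and Ddx60. Oasl2, an OAS-like gene, had -2.62 in C57BL/6J and -1.18 in DBA/2J, and Rtp4, a chaperone of receptors, had -2.43 and -1.45. Zbp1 had -2.36 and -1.54, and Parp14 -1.92 and -0.97. Trim30a, a ubiquitin ligase, had -1.57 and -0.24, and the helicase gene Ddx60 -0.83 and -0.44. Ifi35, a protein induced by interferon, had -1.30 and -0.38, and its level over both strains fell under normoxia with a log2 change of -0.84. Cmpk2 had -0.54 and 0.88 and Ifi44 -0.34 and 1.10, opposite signs in the strains, and these 2 are the members that did not pass over both.

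Under normoxia-hyperoxia the median log2 change against the 24 h controls was 0.01 in C57BL/6J, with 18 of 36 genes above 0, and 1.25 in DBA/2J, with 36 of 36 above 0. The interaction was positive and passed in 18 of the 36, against 0.95% of all genes, and its median was 1.34 (-0.03 for all genes). Of these 18, 14 had also passed in the interaction for normoxia, which shares the same 6 control libraries. Gbp3 held 32, 53.8 and 45.2 CPM in the C57BL/6J controls and 26.9, 33.7 and 39.5 CPM under normoxia-hyperoxia. In DBA/2J it held 12.5, 12 and 10.1 and 30.3, 30.1 and 38.2 CPM. The treated libraries of the strains overlapped while the controls did not, and the interaction was 1.85 (SE 0.26, adjusted p = 0.00521) by edgeR.

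Dhx58, which encodes the RIG-I-like receptor LGP2, showed an interaction of 1.65 (SE 0.22, adjusted p = 0.002619), Oas2 of 1.82 (SE 0.30, adjusted p = 0.008077) and Irf9 of 0.91 (SE 0.15, adjusted p = 0.009316) by edgeR. Irf7 went from 84.1, 155 and 106 CPM to 36.2, 44 and 46.7 CPM in C57BL/6J and from 25.5, 34.8 and 29 CPM to 36.2, 36.7 and 57.7 CPM in DBA/2J. Every C57BL/6J library was below its controls and every DBA/2J library above its own, with an interaction of 1.96 (SE 0.34, adjusted p = 0.02022) by edgeR. It did not pass without replicate 1 (1.89) or 3 (1.97) of the DBA/2J 24 h controls, or without replicate 1 (1.86) of C57BL/6J normoxia-hyperoxia, with a largest adjusted p of 0.0633 by edgeR. Irf1 (-0.01), Ifih1 (-0.00) and Ifit1 (-0.07) had interactions near 0 that did not pass. The count of 18 was 32 without the filter on low counts and 28 by DESeq2, and 7 to 20 when each library was left out in turn. It was 9 without replicate 2 of the C57BL/6J 24 h controls, 8 and 7 without replicates 1 and 3 of the DBA/2J 24 h controls, 8 without replicate 1 of C57BL/6J normoxia-hyperoxia and 11 without replicate 3 of DBA/2J normoxia-hyperoxia. All interactions that passed were positive in each of these fits. For 5 further members whose interaction passed, the strains' own log2 changes were -0.44 in C57BL/6J and 1.61 in DBA/2J for Trim30a, -0.35 and 1.18 for Rtp4, -0.68 and 1.07 for Oasl2, -1.35 and 0.91 for Zbp1, and 0.07 and 1.59 for Parp14. All were above 0 in DBA/2J and 4 were below 0 in C57BL/6J.

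Leukocyte markers also differed between the strains under normoxia-hyperoxia. The summed CPM of Ptprc, Coro1a and Laptm5 was 63.1 to 87.8 in C57BL/6J and 120.1 to 143 in DBA/2J, and all 3 were higher in DBA/2J. The 7 macrophage and dendritic cell markers, of which 5 were higher in DBA/2J, summed to 794 to 1071 CPM in C57BL/6J and 1600.2 to 1730.0 CPM in DBA/2J, against 220.1 to 351 and 294 to 379.5 CPM in the 24 h controls. The 4 neutrophil markers, of which 1 was higher in DBA/2J, summed to 3.57 to 5.34 and 11 to 15.5 CPM, with Ly6g at 0 counts in every library of both groups. The 3 plasmacytoid dendritic cell markers, chosen for a cell type known for making interferon, summed to 57.5 to 93.4 and 52.8 to 74.7 CPM and overlapped; 2 of the 3 were higher in DBA/2J. The part of these levels in the strain difference was not tested.

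In control slices most of these genes were lower in DBA/2J. That strain held less of 31 of the 36 at 24 h and less of 30 at 6 h, and more of none, where 8.27% and 12.7% of all genes were lower in DBA/2J and 13.9% and 13.6% higher. The median log2 difference (DBA/2J over C57BL/6J) was -1.66 at 24 h (0.04 for all genes) and -1.37 at 6 h (0.00 for all genes). Every DBA/2J library was below every C57BL/6J library for 34 of the 36 genes at 24 h and for 26 at 6 h, as for 13.8% and 11.5% of all genes. The same 27 genes passed at both times. Reads of both strains were aligned to GRCm38, the C57BL/6J reference. DBA/2J reads that differ from it could be lost or counted for a paralog. The part of this in the strain differences given here and below was not tested. Without replicate 2 of the C57BL/6J 6 h controls 22 genes were lower in DBA/2J at 6 h and 1, Xaf1 (0.89), was higher, and the median was -0.83.

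Bst2 held 52.3, 79.2 and 60.2 CPM in the C57BL/6J 24 h controls and 31.2, 30.4 and 30.2 CPM in DBA/2J, a log2 difference of -1.09 (SE 0.13, adjusted p = 4.222e-05) by edgeR. Ifi27 held 58.8, 69.4 and 68.4 and 38.8, 40.5 and 36.9 CPM, a difference of -0.79 (SE 0.10, adjusted p = 4.807e-05). Neither gene overlapped between strains. Tap1, a subunit of the peptide pump that loads MHC class I, held 49, 66.3 and 59.4 and 13.8, 25.5 and 16.9 CPM at 24 h and 32.7, 45 and 31.1 and 17.9, 15.6 and 16.3 CPM at 6 h. Its differences were -1.67 (SE 0.21, adjusted p = 0.0001138) at 24 h and -1.28 (SE 0.21, adjusted p = 0.0007742) at 6 h by edgeR, and no library crossed over. Irf9 differed by -1.34 (SE 0.18, adjusted p = 0.0002142) at 24 h and -0.96 (SE 0.19, adjusted p = 0.002411) at 6 h.

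The 3 widest strain differences lay in the IFIT family at both times. At 6 h Ifit1 held 45.7, 216 and 62 CPM in C57BL/6J and 14.8, 13.1 and 12.5 CPM in DBA/2J, a log2 difference of -3.16 (SE 0.53, adjusted p = 0.00188) by edgeR. Replicate 2 of C57BL/6J was far above the other two, and all 3 were above DBA/2J. Without that replicate the differences at 6 h were -2.11 for Ifit1, -1.41 for Ifit2, -1.69 for Ifit3 and -1.75 for Ifit3b, all of which passed, and Ifit1, Ifit3b and Ifit3 were still the widest. Ifit2, Ifit3 and Ifit3b differed by -2.49, -2.79 and -2.75 at 6 h and by -2.28, -2.52 and -2.64 at 24 h. Gbp2 differed by -1.72 (SE 0.31, adjusted p = 0.002227) at 6 h and -1.79 at 24 h, and Rsad2 by -2.51 and -2.17. Without that replicate the 6 h differences were -1.17 for Gbp2, -1.59 for Rsad2, -1.06 for Tap1 and -0.62 for Irf9, and all 4 passed. Xaf1, which encodes an antagonist of the apoptosis inhibitor XIAP, did not share the pattern: it held 27.3, 44 and 33.8 CPM in C57BL/6J and 28.2, 31.3 and 27.7 CPM in DBA/2J at 24 h, and its differences of 0.41 at 6 h and -0.30 at 24 h did not pass. Irf1, Mx2, Oas2 and Oas3 were the others that did not pass at 24 h.

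General leukocyte markers overlapped between the strains in the controls, while some other markers did not. The summed CPM of Ptprc, Coro1a and Laptm5 was 33 to 55.1 in C57BL/6J and 39.99 to 55.8 in DBA/2J at 24 h, and 44.6 to 62.7 and 57.2 to 60.1 at 6 h, overlapping at both times. The 4 endothelial markers summed to 983 to 1280.4 CPM in C57BL/6J and 551 to 923 CPM in DBA/2J at 24 h, where 2 of the 4 were lower in DBA/2J, and all 4 were lower at 6 h. Proximal tubule markers were higher in DBA/2J, with 4 of 4 passing at 24 h and 2 of 4 at 6 h. Podocyte sums were 370 to 449 CPM in C57BL/6J and 243 to 359 CPM in DBA/2J at 24 h, and overlapped at 6 h. Loop of Henle and distal sums were 11167 to 12601 and 6569 to 8931 CPM at 6 h, and overlapped at 24 h. Of the 7 macrophage and dendritic cell markers 2 were higher in DBA/2J at 24 h and 1 at 6 h, and none was lower. The 3 plasmacytoid dendritic cell markers summed to 111 to 126 CPM in C57BL/6J and 57 to 101 CPM in DBA/2J at 24 h, without overlap, and overlapped at 6 h. Nearly all of that sum is Tcf4, which was lower in DBA/2J at 24 h (-0.70). Siglech, the defining marker of the 3, had 0 counts in the C57BL/6J libraries and at most 2 in those of DBA/2J. T and NK cell markers summed to 0.597 to 1.11 CPM in C57BL/6J and, without overlap, 1.89 to 3.54 CPM in DBA/2J at 24 h. The part of these differences in the strain difference was not tested. With mitochondrial genes left out of the library totals, 31 of the 36 genes were lower in DBA/2J at 24 h and 30 at 6 h.

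**Figure D4:**
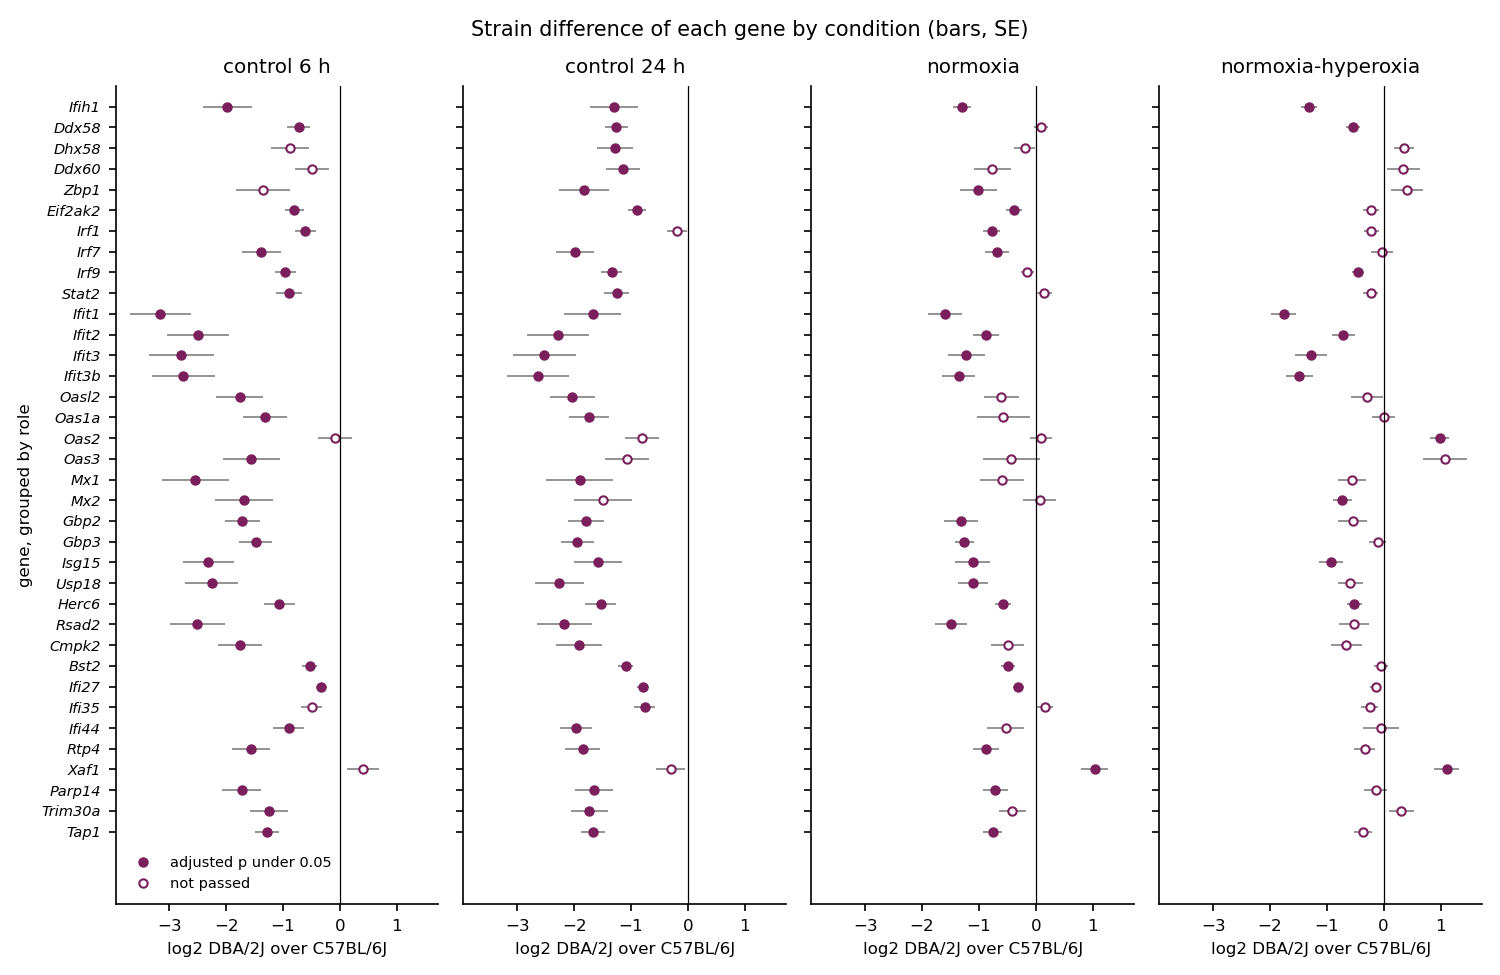
Each point is the log2 difference of 1 gene between DBA/2J and C57BL/6J, with its standard error, in 4 conditions; filled points passed at an adjusted p under 0.05 and open points did not. The points lie mostly left of 0 in both controls (30 and 31 lower) and closer to 0 under normoxia-hyperoxia (10 lower and 2 higher).

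Fewer genes separated the strains in the oxygen conditions. Under normoxia 20 of the 36 genes were lower in DBA/2J and 1, Xaf1, was higher, with a median of -0.60 (0.08 for all genes), where 18.5% of all genes were lower and 28.3% higher. Ifih1 held 14.3, 15.7 and 14.3 CPM in C57BL/6J and 4.59, 6.31 and 6.43 CPM in DBA/2J, with no overlap and a log2 difference of -1.29 (SE 0.16, adjusted p = 2.024e-05) by edgeR. Differences were -1.26 (SE 0.17, adjusted p = 3.059e-05) for Gbp3, -0.78 (SE 0.14, adjusted p = 0.000482) for Irf1 and -1.49 (SE 0.27, adjusted p = 0.00117) for Rsad2 by edgeR. Of the 39 cell type markers 38 were tested under normoxia, and 19 were lower in DBA/2J and 5 higher, with a median of -0.48. General leukocyte markers summed to 76.2 to 86.7 CPM in C57BL/6J and 53.3 to 62.4 CPM in DBA/2J, and macrophage and dendritic cell markers to 630.3 to 665 and 398 to 498 CPM. Endothelial, podocyte and loop of Henle sums were lower in DBA/2J too, and none of these 5 sums overlapped. The 4 proximal tubule markers were higher. The part of these levels in the strain difference under normoxia was not tested.

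Under normoxia-hyperoxia 10 genes were lower in DBA/2J and 2, Oas2 and Xaf1, were higher, with a median of -0.27 (0.00 for all genes), where 11.3% of all genes were lower and 14.3% higher. The count of 12 was 19 without replicate 3 of DBA/2J normoxia-hyperoxia, which had the highest level of its group for 33 of the 36 genes, and 21 without the filter on low counts. Ifih1 held 118, 103 and 130.3 CPM in C57BL/6J and 44, 42.5 and 62.7 CPM in DBA/2J, a log2 difference of -1.31 (SE 0.14, adjusted p = 9.52e-06) by edgeR, close to its differences of -1.29 under normoxia and -1.30 in the 24 h controls. Ifit1 differed by -1.76 (SE 0.21, adjusted p = 0.0001375) and Ifit3b by -1.48 (SE 0.23, adjusted p = 0.0006483). Oas2 held 5.48, 7.32 and 6.3 CPM in C57BL/6J and 13.4, 13.7 and 13.6 CPM in DBA/2J, the reverse order, with a difference of 0.99 (SE 0.17, adjusted p = 0.0005617) by edgeR. Herc6, Ifih1, Ifit1, Ifit2, Ifit3, Ifit3b and Isg15 were lower in DBA/2J in all 4 conditions tested.

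As a plain ratio of mean CPM, the median over the 36 genes of C57BL/6J over DBA/2J was 2.31 in the 6 h controls, 3.09 in the 24 h controls, 1.58 under normoxia and 1.14 under normoxia-hyperoxia. Without replicate 2 of the C57BL/6J 6 h controls it was 1.63 at 6 h, with 33 genes higher in C57BL/6J. Over all libraries C57BL/6J had the higher mean for 34, 36, 31 and 25 of the 36 genes in the same order.

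Time in culture moved part of the list. From 6 h to 24 h in the controls 17 of the 36 genes rose and 2 fell, where 34.7% of all genes rose and 37.4% fell, and the median was 0.35 (-0.02 for all genes). Oas3 held 0.951, 3.55 and 1.81 CPM at 6 h and 4.68, 11.6 and 6.62 CPM at 24 h in C57BL/6J, and 0.594, 0.828 and 0.972 and 4.37, 3.65 and 3.18 CPM in DBA/2J. Each strain rose without overlap, by a log2 change of 1.84 (SE 0.32, adjusted p = 0.0001485) over both by edgeR. Oas1a, whose reads may be shared with its close paralogs, rose by 1.20 (SE 0.26, adjusted p = 0.001142) and Usp18 by 1.14 (SE 0.31, adjusted p = 0.006049). Irf1 fell, with a change of -0.75 (SE 0.13, adjusted p = 0.000185), as did Ifi44 at -0.62 (SE 0.19, adjusted p = 0.01227). No IFIT gene and no GTPase passed, with changes from -0.49 to 0.29. Over the same time all 4 proximal tubule markers (-2.65 to -3.19), all 3 of the loop of Henle and distal tubule, both of the collecting duct and both podocyte markers fell, and of the 3 general leukocyte markers Ptprc fell (-0.93). Macrophage and dendritic cell markers, of which 3 of 7 fell and 1 rose, went from 482 to 663 to 220.1 to 351 CPM in C57BL/6J, and in DBA/2J from 616 to 659 to 294 to 379.5 CPM, without overlap. All 3 tested T and NK cell markers fell, and of the 4 endothelial markers 2 fell and 1 rose. The mitochondrial share went from 15.4% ± 0.78 at 6 h to 6.83% ± 0.97 at 24 h in C57BL/6J and from 8.16% ± 0.15 to 3.52% ± 0.12 in DBA/2J (SD, n = 3). Their part in the change of the 36 genes was not tested.

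These numbers rest in part on replicate 2 of the C57BL/6J 6 h controls, where Ifit1, for example, held 216 CPM against 45.7 and 62 in the others. Without it 30 genes passed, 28 higher and 2 lower, and the median was 0.57. Ifit1 (0.55), Ifit2 (0.50), Ifit3 (0.78), Ifit3b (0.55), Mx2 (0.57) and Gbp3 (0.50) were among those that rose. Gbp2 and Mx1 did not pass. That fit kept replicate 2 of the C57BL/6J 24 h controls, the highest of its group for 34 of the 36 genes. With that 24 h library left out instead, 16 genes passed. No interaction of time with strain passed among the 36, while 0.69% of all genes did. Of the 36, 3 had an unadjusted p under 0.05 by edgeR, as did 2242 of the 16962 genes tested. The smallest p were those of Ifi27, at -0.46 (SE 0.14, adjusted p = 0.1651), and Bst2, at -0.56 (SE 0.19, adjusted p = 0.215), by edgeR. Without replicate 2 of the C57BL/6J 6 h controls 4 interactions passed. Without replicate 1 of the same group 1 did, and without the filter on low counts 8 did.

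Neither drug gave a member that passed edgeR's test. For tunicamycin, which blocks N-linked glycosylation, the count was 0 of 36 at 6 h, where 0% of all genes passed (281 genes had an unadjusted p under 0.05), none of the 36 had an unadjusted p under 0.05, and the median was -0.06 (-0.00 for all genes). Trim30a, at -0.19 (SE 0.24, adjusted p = 0.9999), and Zbp1, at -0.22 (SE 0.33, adjusted p = 0.9999), had the smallest p by edgeR. DESeq2 gave 0 as well. Without replicate 2 of the C57BL/6J 6 h controls, and with the high replicate 2 of the treated slices kept, the median was 0.19. At 24 h the count was 0 of 36 by edgeR and 2 by DESeq2, where 1.38% of all genes passed edgeR's test. Of the 36, 4 had an unadjusted p under 0.05 by edgeR, as did 2174 of the 16905 genes tested. All 36 estimates were below 0, with a median of -0.21 (0.01 for all genes).

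The 2 genes nearest the threshold under tunicamycin at 24 h were Ddx58 and Eif2ak2. Ddx58 held 71.6, 86.2 and 82.8 CPM in treated C57BL/6J slices against the control levels given above, and 49.4, 41.4 and 36.3 CPM in DBA/2J. The treated C57BL/6J libraries lay below their controls and the DBA/2J libraries overlapped theirs, with a log2 change of -0.30 (SE 0.08, adjusted p = 0.07584) by edgeR. Eif2ak2 held 29.6, 39.2 and 34.5 CPM treated and 42.2, 55.9 and 47.6 CPM in controls of C57BL/6J, and 26.6, 18.8 and 15.9 and 29, 25.2 and 25.8 CPM in DBA/2J, a change of -0.44 (SE 0.12, adjusted p = 0.09768). Within C57BL/6J all 36 estimates were below 0, with a median of -0.45. Within DBA/2J 25 were above 0, with a median of 0.06. No test of this difference between the strains is reported here. Without replicate 1 of DBA/2J tunicamycin at 24 h, which had the highest level of its group for 34 of the 36 genes, 2 genes passed, both lower, and with the replicate number as a block the count was also 2.

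Cyclosporin A gave 0 of 36 by edgeR and by DESeq2 at both times, and 0% of all genes passed edgeR's test (734 at 6 h and 1107 at 24 h had an unadjusted p under 0.05). The median of the 36 was -0.10 at 6 h (-0.00 for all genes), with 0 at an unadjusted p under 0.05 (0.17 without replicate 2 of the C57BL/6J 6 h controls), and 0.06 at 24 h (0.01 for all genes), with 1. The genes with the smallest p were Ifi27, at -0.10 (SE 0.08, adjusted p = 1), and Ifi44, at -0.27 (SE 0.20, adjusted p = 1), at 6 h by edgeR. At 24 h they were Isg15, at 0.24 (SE 0.09, adjusted p = 0.67), and Bst2, at 0.23 (SE 0.12, adjusted p = 0.7903), by edgeR. Isg15 held 73.4, 74.7 and 64.9 CPM in treated C57BL/6J and 28.9, 30.5 and 29.1 CPM in treated DBA/2J slices at 24 h. The DBA/2J libraries lay above their controls and the C57BL/6J libraries overlapped theirs.

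A second list of 38 genes held the rest of the pathway, from ligands to restraints. Interferon beta, encoded by Ifnb1, was counted at 16, 43 and 1 reads in the C57BL/6J 24 h controls and 12, 5 and 5 in DBA/2J. Under normoxia the counts were 0, 0 and 0 in C57BL/6J and 0, 0 and 1 in DBA/2J. Under normoxia-hyperoxia they were 127, 110 and 125 in C57BL/6J and 22, 1 and 66 in DBA/2J, the count of 1 in the library of lowest depth. The C57BL/6J libraries held 4.38 to 6.76 CPM and the DBA/2J libraries 0.178 to 3.31 CPM, without overlap. Ifnb1 fell under normoxia and rose under normoxia-hyperoxia against the 24 h controls, the latter by a log2 change of 2.48 (SE 0.53, adjusted p = 0.001316) by edgeR. Under normoxia-hyperoxia it was lower in DBA/2J, with a log2 difference of -1.73 (SE 0.50, adjusted p = 0.02721). That call was lost in 4 of 12 fits that each left out 1 library: replicate 1 (-1.62) or 3 (-1.70) of C57BL/6J normoxia-hyperoxia, replicate 1 (-1.49) of DBA/2J normoxia-hyperoxia, or replicate 3 (-1.73) of DBA/2J normoxia, with a largest adjusted p of 0.11 by edgeR. Over the 12 fits the strain difference of Ifnb1 ran from -2.73 to -1.41. In the 6 h controls of C57BL/6J the counts of Ifnb1 were 10, 44 and 6, highest in the replicate 2 that was also highest for the 36 genes.

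The lambda interferon gene Ifnl3 was counted at 23, 26 and 33 in C57BL/6J and 19, 1 and 18 in DBA/2J under normoxia-hyperoxia, and at 0 in every normoxia library. It and its near copy Ifnl2 cannot be told apart with certainty. Ifng, the type II ligand, rose under normoxia-hyperoxia against the 24 h controls, to 15, 25 and 26 counts in C57BL/6J and 3, 5 and 19 in DBA/2J. Ifna1, 1 of the interferon alpha genes, had 0 counts in all 48 libraries.

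Socs3, a feedback inhibitor of JAK kinases that interleukins of the IL-6 family also induce, followed the oxygen conditions. It held 90.8, 91.9 and 98.4 CPM in the C57BL/6J 24 h controls, 3.94, 3.22 and 2.65 CPM under normoxia and 474, 567 and 561 CPM under normoxia-hyperoxia. In DBA/2J it held 81.7, 82.5 and 81.4, then 2.42, 2.45 and 1.64, then 494, 530.0 and 677 CPM. The 3 conditions did not overlap in either strain, with log2 changes of -4.76 (SE 0.10, adjusted p = 8.598e-16) under normoxia and 2.82 (SE 0.08, adjusted p = 4.256e-12) under normoxia-hyperoxia by edgeR. Socs1 changed by -2.07 and 0.58, the DNA sensor gene Cgas by -1.33 and 0.64, and its adaptor Sting1 by -1.11 and 1.78.

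**Figure D5:**
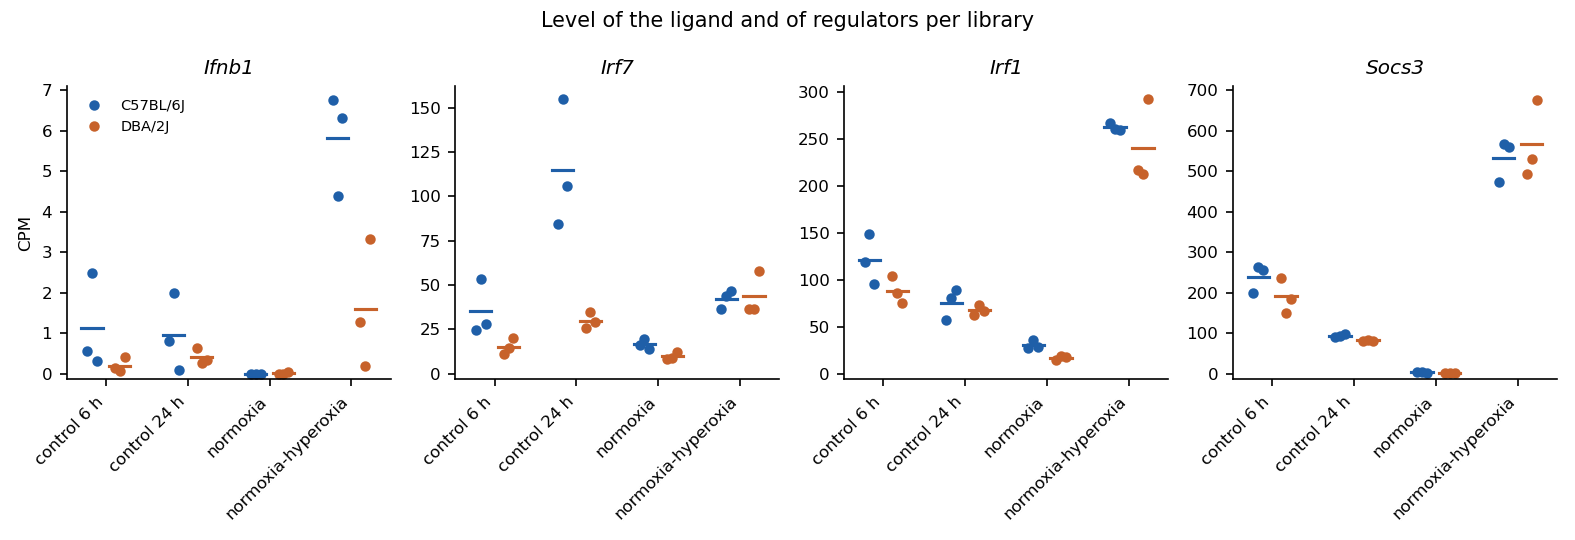
Points are CPM in each library for Ifnb1, Irf7, Irf1 and Socs3 in 4 conditions (x axis) by strain (colour), with lines at the mean of 3 libraries and a separate linear scale for each gene. Ifnb1, Irf1 and Socs3 are highest under normoxia-hyperoxia, while Irf7 is highest in the C57BL/6J 24 h controls (84.1 to 155).

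The receptor genes Ifnar1 and Ifnar2 held 61.2 to 67.7 and 29.4 to 35 CPM in C57BL/6J and 72.5 to 75.5 and 26.6 to 35.4 CPM in DBA/2J at 24 h, and neither passed the strain comparison there. Trex1, a nuclease that clears cytosolic DNA, was lower in DBA/2J, with log2 differences of -1.10 at 24 h and -1.54 at 6 h.

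Counted over the whole list of 38, of which 29 to 33 had enough reads to be tested, 8 genes rose and 18 fell under normoxia against the 24 h controls, where 42.4% of all genes rose and 39.7% fell. Under normoxia-hyperoxia 22 rose and 2 fell, where 34.1% of all genes rose and 34.1% fell. Between the conditions, 25 were higher and 4 lower under normoxia-hyperoxia than under normoxia, where 37% and 36.5% of all genes were. With time in culture 7 rose and 12 fell of 30 tested, where 34.7% and 37.4% of all genes did. DBA/2J was lower for 7 and higher for 1 in the 24 h controls (8.27% and 13.9% of all genes), and lower for 10 and higher for 1 in the 6 h controls (12.7% and 13.6%). In the interactions 5 passed for normoxia, all positive (10.1% of all genes), and 1 for normoxia-hyperoxia (0.95%), the DNA sensor gene Tlr9 at 2.29 (SE 0.38, adjusted p = 0.008051) by edgeR. Under tunicamycin at 24 h 1 passed (1.38% of all genes), Ticam1, an adaptor of Toll-like receptors (0.38), which did not pass when all 48 libraries were fitted together. None did in the other drug comparisons.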

How the data were processed

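Gene counts for 48 libraries of cultured kidney slices were taken from the table the authors deposited, which holds whole-number counts per gene, not normalized. Per the labels' protocols, RNA came from a Qiagen midi kit extraction and libraries were made with an Illumina stranded mRNA kit. Per the submitters' processing notes, bcl2fastq 2.20.0, FastQC 0.11.8, STAR 2.7.9a, featureCounts 1.5.1 and GRCm38 were used; the annotation release, the strand setting and read filters are not given in the sources used here. The lists and tests were chosen with earlier results of these data known.

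Symbols were matched for 55141 of 55487 genes, and promoter windows came from RefSeq on GRCm38.p6. In R 4.3.3, edgeR 4.0.16 (with limma 3.58.1) fitted quasi-likelihood models to 12 libraries in 4 groups at a time (8 residual degrees of freedom) after filterByExpr and TMM scaling. Strain differences in controls come from the fit of both control times, and those in the oxygen conditions from the fit of normoxia and normoxia-hyperoxia. The 17 contrasts (10 over both strains, 4 strain differences, 3 interactions) were each adjusted over all genes tested by Benjamini-Hochberg at 0.05, and not for one another. No pair of libraries held identical counts (0 pairs).

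Fold changes with errors are given for the 3 members with the largest rise and the 3 with the largest fall among those that passed, or the 2 with the smallest p where none did, and for the 4 with the smallest p in strain differences and interactions; Irf7 in the interaction for normoxia-hyperoxia was added after its values were seen, as were genes of the wider pathway given with errors. Promoters shown are those of the member of each role with the highest mean CPM among those with the motif. Where a group held 3 counts or fewer in every library, counts are given and no fold. Alternatives were RLE factors, no mitochondrial genes, no filter, the Wald test of DESeq2 1.42.0, a joint fit of 48 libraries, a replicate block, and the loss of each single library.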

Additional observations from a re-analysis of the deposited data

Results flagged for a closer look

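The changes under the oxygen conditions differed between the strains by the test of the difference itself, the interaction in the edgeR quasi-likelihood fit (DBA/2J minus C57BL/6J, log2, Benjamini-Hochberg adjusted over all genes). For normoxia against the 24 h controls 23 of the 36 genes passed, all positive, where 10.1% of all genes passed as positive. That count was 6 in the fit of 48 libraries and 8 to 24 when each library was left out in turn. For normoxia-hyperoxia 18 passed, all positive, against 0.95% of all genes, and the count was 7 to 20 when each library was left out, 28 by DESeq2 and 32 without the filter on low counts. Among the genes of smallest p, the difference for normoxia was 1.36 for Ddx58, 1.20 for Irf9, 1.40 for Stat2 and 0.96 for Herc6. For normoxia-hyperoxia it was 1.65 for Dhx58, 1.85 for Gbp3, 1.82 for Oas2 and 0.91 for Irf9. Both sets of differences share the 6 control libraries of 24 h, in which the strains also differed.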

How the results depend on the processing

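The counts for normoxia (34), normoxia-hyperoxia (26), their difference (36), both oxygen conditions against 6 h (30 and 30), and the strain differences at 6 h (30), 24 h (31) and normoxia (21) stayed within 1.5 times of these values in every alternative run. Leaving out each library in turn gave 34 to 35, 25 to 27, 35 to 36, 25 to 32, 26 to 35, 22 to 31, 25 to 34 and 17 to 22 genes in that order, and 0 in every fit for both drugs at 6 h and for cyclosporin A at 24 h. For tunicamycin at 24 h the range was 0 to 2, for time in culture 16 to 30, for the strain difference under normoxia-hyperoxia 10 to 19, and for the interactions 0 to 4 (time), 8 to 24 (normoxia) and 7 to 20 (normoxia-hyperoxia).

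Without the filter on low counts, tunicamycin at 24 h gave 1 gene, the strain difference under normoxia-hyperoxia 21, the time interaction 8 and the normoxia-hyperoxia interaction 32. DESeq2 gave 2 for tunicamycin at 24 h and 28 for the normoxia-hyperoxia interaction. In 1 fit of all 48 libraries the normoxia interaction gave 6, and the cause was not tested. Of 56 results for named genes 48 kept their direction and side of the threshold throughout. Under tunicamycin at 24 h, Ddx58 and Eif2ak2 passed by DESeq2, with the replicate block, and without replicate 1 of the treated DBA/2J slices. Ddx58 also passed without the filter on low counts. The time interaction of Ifi27 passed without replicate 1 of the C57BL/6J 6 h controls, and that of Bst2 without the filter. Under tunicamycin at 6 h, Trim30a (0.05) and Zbp1 (0.15) changed sign without replicate 2 of the C57BL/6J 6 h controls; over all libraries left out they ran from -0.33 and -0.38 to these values. In the fit of 48 libraries, Bst2 under normoxia-hyperoxia (-0.29, edgeR adjusted p = 0.0532) and the normoxia interaction of Herc6 (0.88, edgeR adjusted p = 0.0797) no longer passed.

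Same-numbered libraries had mean residual correlations of 0.0137 to 0.179 over the 10 comparisons, and in none were all 6 pairs above 0.1, so the numbers were not taken as pairs. In 6 of the 10 all 3 pairs of 1 strain were above 0.1, and slices of the same number may come from 1 mouse, which the labels do not say. With the replicate block, tunicamycin at 24 h gave 2 genes, and the other counts stayed within 1.5 times. Depth limits Ifnb1, Ifnl3 and Ifng, whose counts in several groups were at or under the floor of 3 counts.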
